A study of Mus musculus with 2 samples.

Results

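The 10 crystallin genes *Cryba2*, *Cryba1*, *Cryba4*, *Crybb1*, *Crybb2*, *Crybb3*, *Cryaa*, *Cryab*, *Crygs* and *Crym* were followed in the embryonic mouse pancreas, out of 19938 genes that had a probe set with a single gene symbol. They were selected by symbol, and each had 1 such probe set. *Cryba2* was included because it differed between the genotypes on these same arrays, so its difference is given as a description. The data are 1 Affymetrix mouse gene array of *Mafk*-Tg and 1 of WT, hybridised with RNA of whole pancreata at E15.5, and both genotypes were on an ICR background. *Mafk*-Tg embryos carry a mouse *Mafk* cDNA with a FLAG tag behind the rat *Insulin 1* promoter, which directs the transgene to β-cells, whereas the arrays measure every cell of the organ. WT embryos carry no transgene. Pancreata of 3 embryos per genotype were collected, and the study also speaks of technical replicates, but the data used here hold 1 array of each genotype and how the RNA was combined on it is not stated. A single array per genotype has no replicate spread, and the differences below therefore carry no test. A value is a log2 probe set value, a difference is *Mafk*-Tg minus WT on that scale, and the cutoff of the study, 1.2-fold, is 0.26.

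Crystallins are the abundant soluble proteins that make the eye lens transparent and refractive. The α-crystallins (*Cryaa*, *Cryab*) are small heat shock proteins that keep other proteins from aggregating, while the β- and γ-crystallins (*Cryb* and *Cryg* genes) share a compact fold built from Greek key motifs. *Crym*, the μ-crystallin gene, is unrelated to either family and encodes a cytosolic protein that binds thyroid hormone. In the lens, large MAF factors such as c-MAF activate crystallin genes through the MAF recognition element (MARE). Small MAF proteins such as MAFK bind the same element but lack the activation domain. *Cryba2* is also known as a gene of endocrine progenitors and islets, where large MAF factors control insulin and other β-cell genes.

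The sequences just upstream of these genes were searched for the MARE because the transgene encodes a factor that binds it. The half-site TGCTGA was looked for on both strands in the 250 bases before the annotated start of each gene, taken from RefSeq on GRCm38.p6, and 8 of the 10 genes matched a window. The half-site was found in 7 of these 8 windows, against 16.1% of all 32851 windows of the same length. *Cryba4* had 3 copies and *Cryba2*, *Cryba1*, *Crybb1*, *Crybb3*, *Cryaa* and *Crygs* had 1 copy each. A match describes letters and not binding. The windows of the 3 genes past the cutoff, *Cryba2* (chr1:74893144-74893393, minus strand), *Crybb3* (chr5:113081585-113081834, minus strand) and *Cryaa* (chr17:31677681-31677930, plus strand), are given here with that of *Crybb1* (chr5:112255570-112255819, plus strand), whose values were nearly equal. Each is written 5′ to 3′ on the strand of its gene. Capitals mark the half-sites and the paired motifs described below, including the gap bases between the parts of a pair, which belong to no motif.
*Cryba2*: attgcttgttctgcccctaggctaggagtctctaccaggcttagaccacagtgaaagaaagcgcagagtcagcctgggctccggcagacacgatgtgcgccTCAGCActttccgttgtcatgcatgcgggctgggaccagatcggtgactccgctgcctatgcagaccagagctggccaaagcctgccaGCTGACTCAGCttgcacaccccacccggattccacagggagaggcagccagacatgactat
*Crybb3*: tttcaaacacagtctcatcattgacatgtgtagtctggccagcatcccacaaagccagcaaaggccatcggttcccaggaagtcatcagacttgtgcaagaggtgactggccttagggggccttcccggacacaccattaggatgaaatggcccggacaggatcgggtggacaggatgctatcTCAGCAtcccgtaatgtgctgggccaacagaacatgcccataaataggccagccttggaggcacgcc
*Cryaa*: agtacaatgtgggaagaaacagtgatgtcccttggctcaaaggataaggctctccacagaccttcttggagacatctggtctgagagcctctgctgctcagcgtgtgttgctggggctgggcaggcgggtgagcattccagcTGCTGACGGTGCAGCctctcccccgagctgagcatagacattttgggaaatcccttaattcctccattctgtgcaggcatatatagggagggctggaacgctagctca
*Crybb1*: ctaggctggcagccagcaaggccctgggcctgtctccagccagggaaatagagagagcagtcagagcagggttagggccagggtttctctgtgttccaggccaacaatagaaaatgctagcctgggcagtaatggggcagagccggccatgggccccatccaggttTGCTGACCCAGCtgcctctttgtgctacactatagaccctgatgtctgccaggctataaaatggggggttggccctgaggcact

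In *Cryaa* the half-site lay 103 to 108 bases before the start. The *Cryba2* half-site lay 144 to 149 bases before the start, on the opposite strand. Its window also holds a pair of facing MARE cores, GCTGA followed across 1 base by its reverse complement TCAGC, which reads GCTGACTCAGC and lies 51 to 61 bases before the start. The form with a 1-base or 2-base gap was searched for after the window had been read, and 37 of the 32851 windows hold it, which is 0.113%. None of the other 7 windows does. A half-site followed after 2 to 5 bases by CAGC, also searched for afterwards and found in 0.46% of all windows, was present in *Cryaa* as TGCTGACGGTGCAGC and in *Crybb1* as TGCTGACCCAGC. These lie 94 to 108 and 73 to 84 bases before the start. The *Crybb3* half-site, on the opposite strand, lay 62 to 67 bases before the start. Both half-sites complete and facing each other at either spacing were found in 4 of all windows and in none of these 8. Whether the half-site goes with a difference between the genotypes was not tested, since 7 of the 8 windows hold it.

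*Cryba2* was lower in the *Mafk*-Tg pancreas and stood apart from the other 9 crystallin genes. Its value was 5.94 in *Mafk*-Tg and 6.75 in WT, a difference of -0.81, or 1.75-fold lower. The *Mafk*-Tg value lay just below the median of its array, 6.01, and the WT value well above that of its own, also 6.01. Among the 21789 probe sets with 1 symbol, 74 had a lower difference, and 18 of these were among the 12691 at or above the median mean level. Of the 1000 probe sets nearest to *Cryba2* in mean level, taken from all probe sets with or without a symbol, 3 had a lower difference. The robust SD of the differences of those 1000, a spread estimated from their median absolute deviation, was 0.22. It is a spread between probe sets and not between replicates. *Cryba2* was included for its difference on these same arrays, so these ranks describe it and are no test. In whole pancreas, fewer *Cryba2*-expressing cells and less *Cryba2* RNA per cell cannot be told apart.

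Across the 10 genes, 2 were at least 1.2-fold lower in *Mafk*-Tg and 1 was at least 1.2-fold higher, while 10.5% of all probe sets with 1 symbol were lower by that much and 8.22% were higher. The median difference of the 10 was -0.04, and that of the 9 without *Cryba2* was -0.02, beside -0.01 over all probe sets with 1 symbol. The 9 other genes had differences of -0.34 to 0.29. At 1.5-fold, *Cryba2* was the only one of the 10 past the cutoff, where 1.31% of all probe sets with 1 symbol were lower and 0.711% were higher.

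**Figure D1:**
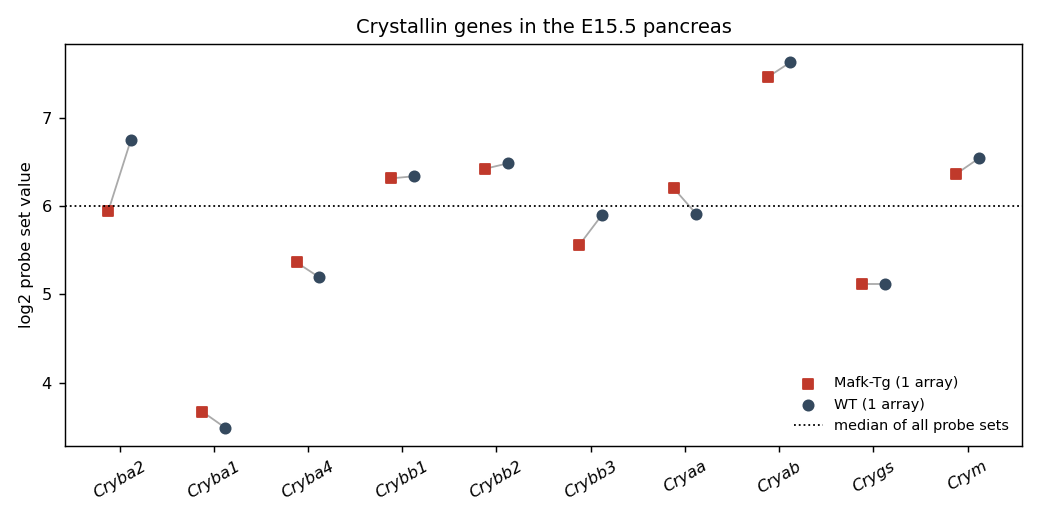
Log2 probe set values (y axis) of the 10 crystallin genes (x axis) in *Mafk*-Tg (squares) and WT (circles), with 1 array per genotype, grey lines between the paired values and a dotted line at the median of all probe sets. *Cryba2*, at 5.94 in *Mafk*-Tg and 6.75 in WT, has the steepest line.

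The other acidic β-crystallin genes did not share the lower value of *Cryba2*. *Cryba1*, which encodes the βA1 and βA3 proteins of the lens from a single transcript, was at 3.67 in *Mafk*-Tg and 3.49 in WT, far below the medians of both arrays, with a difference of 0.18. *Cryba4* was at 5.36 in *Mafk*-Tg and 5.19 in WT, a difference of 0.17. Both were above 0 and under 1.2-fold, so the 3 acidic members did not move one way.

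Among the basic β-crystallin genes, *Crybb3* was lower. It was at 5.56 in *Mafk*-Tg and 5.90 in WT, a difference of -0.34 or 1.27-fold lower, below the median on both arrays. Probe sets with 1 symbol below the median mean level were at least 1.2-fold lower in 16.8% of cases, while the share was 5.96% from the median upwards. Of the 1000 probe sets nearest in level, with or without a symbol, 92 had a lower difference than *Crybb3*. *Crybb1* was at 6.31 in *Mafk*-Tg and 6.34 in WT, a difference of -0.02. *Crybb2*, whose protein is a main component of the mature lens, was at 6.42 in *Mafk*-Tg and 6.48 in WT, a difference of -0.06. Both lay above the medians of their arrays with nearly equal values in the genotypes.

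The α-crystallin genes differed in opposite directions, although only *Cryaa* passed the cutoff. *Cryaa*, the α-crystallin gene largely restricted to the lens, was at 6.20 in *Mafk*-Tg and 5.91 in WT, a difference of 0.29 or 1.22-fold higher, so that its value lay above the array median in *Mafk*-Tg and below it in WT. Its mean level lay just above the median of all probe sets, and from the median upwards 5.86% of probe sets with 1 symbol were at least 1.2-fold higher. Of the 1000 probe sets nearest in level, with or without a symbol, 111 had a higher difference than *Cryaa*. *Cryab*, which muscle, heart and glia also express as a stress-induced chaperone, was at 7.46 in *Mafk*-Tg and 7.63 in WT, a difference of -0.17 and under 1.2-fold. It had the brightest probe set of the 10 on both arrays. Signals of different probe sets depend on their probes and are not amounts of RNA, so the order of the genes on an array is given only as signal.

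*Crygs*, the γ-crystallin gene of the differentiated lens, had the same value on both arrays, 5.12, below the medians. Such identical values occurred in 767 of the probe sets with 1 symbol, which is 3.52%. *Crym* was at 6.37 in *Mafk*-Tg and 6.54 in WT, a difference of -0.18 and under 1.2-fold. In all, 4 of the 10 genes lay above the medians of both arrays (*Crybb1*, *Crybb2*, *Cryab*, *Crym*), 4 lay below both (*Cryba1*, *Cryba4*, *Crybb3*, *Crygs*), and *Cryba2* and *Cryaa* were above the median in one genotype and below it in the other. The files used here give no detection call, so whether the dim genes were expressed was not determined.

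**Figure D2:**
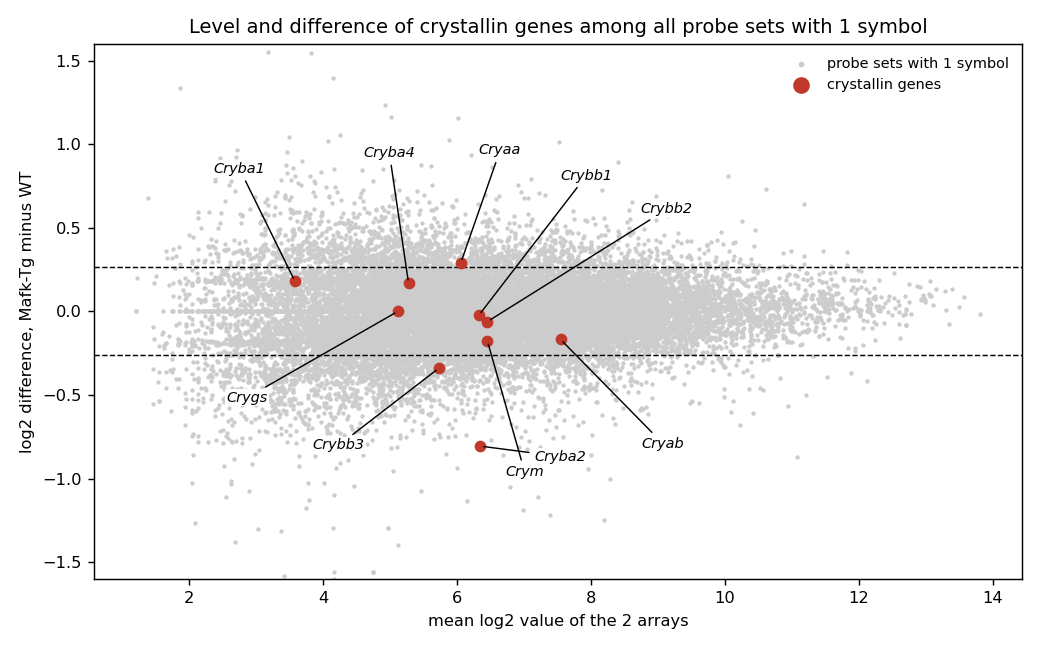
Mean log2 value of the 2 arrays (x axis) and log2 difference, *Mafk*-Tg minus WT (y axis), of probe sets with 1 symbol (grey points) and of the 10 crystallin genes (red points, named), with dashed lines at 1.2-fold. *Cryba2* lies at -0.81, the other 9 between -0.34 and 0.29, and 16 probe sets beyond a difference of 1.6 in size are outside the drawn range.

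The wider crystallin family had small differences. Of 13 further family genes, 12 were measured, of which 1 was at least 1.2-fold lower and 0 were higher, with a median of -0.04, beside 10.5% lower and 7.96% higher over all genes. The lower one was *Crygn*, a gene related to both the β- and the γ-crystallins, at 5.42 in *Mafk*-Tg and 5.75 in WT, a difference of -0.33. The 5 clustered lens γ-crystallin genes with a probe set of their own, *Cryga*, *Crygb*, *Crygc*, *Crygd* and *Crygf*, lay at 2.71 to 4.79 in *Mafk*-Tg and 2.91 to 4.82 in WT. Their differences were between -0.24 and 0.00, all under 1.2-fold, and these near-identical genes may share signal. *Cryge* was represented by a probe set shared with *Crygf*, which was at 4.79 in *Mafk*-Tg and 5.13 in WT, a difference of -0.33.

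The enzyme-like and multi-domain relatives were all under 1.2-fold. *Cryz*, which encodes the quinone reductase ζ-crystallin, had a difference of 0.18, *Cryl1*, the λ-crystallin gene and a sugar dehydrogenase, had 0.00, and *Cryzl1* had 0.01. *Crybg1*, *Crybg2* and *Crybg3*, large proteins that carry β/γ-crystallin domains outside the lens, had 0.02, -0.17 and -0.05.

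The other small heat shock protein genes are relatives of *Cryaa* and *Cryab*. Of 7, 1 was higher and 0 lower, with a median of -0.03, beside 7.96% higher and 10.5% lower over all genes. The higher one was *Hspb3*, a muscle-enriched member, at 4.47 in *Mafk*-Tg and 3.99 in WT, a difference of 0.47 at a low signal. *Hspb2*, the gene next to *Cryab*, was at 5.50 in *Mafk*-Tg and 5.76 in WT, a difference of -0.26 that lay just under 1.2-fold. *Hspb1* had -0.19 and *Hspb9* 0.19.

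**Figure D3:**
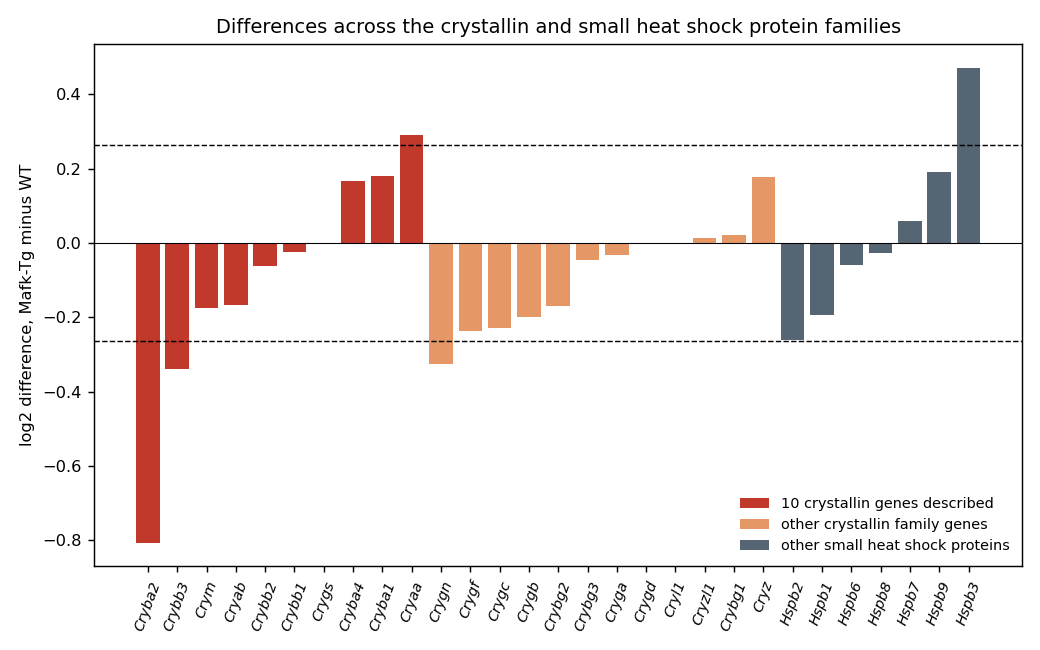
Log2 difference, *Mafk*-Tg minus WT (y axis), of the 10 crystallin genes, 12 other crystallin family genes and 7 other small heat shock protein genes (x axis, sorted within each set), from 1 array of each genotype. Dashed lines mark 1.2-fold. The bar of *Cryba2*, at -0.81, is the longest, and *Hspb3* at 0.47 is the highest.

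Genes beside the crystallins on the chromosome were compared, with the 2 nearest genes on each side in the RefSeq gene table. On chromosome 1, *Cryba2* lies between *Fev* and the islet microRNA gene *Mir375*. *Mir375* was at 5.68 in *Mafk*-Tg and 5.90 in WT, a difference of -0.23. *Cdk5r2*, which lies beyond *Fev* and encodes a neuronal activator of CDK5, had -0.23 and *Cfap65*, a gene of cilia and flagella, had -0.06. All 3 were under 1.2-fold, and *Fev* was not analysed here. On chromosome 5 the adjacent genes *Cryba4* and *Crybb1* had 0.17 and -0.02, and *Crybb2* and *Crybb3* had -0.06 and -0.34. Over all 10 genes, 21 of 37 distinct neighbours were measured, of which 1 was higher and 2 were lower, near the 7.96% higher and 10.5% lower over all genes. These were *Anks4b* at 0.40 and *Abca15* at -0.69, both near *Crym* on chromosome 7, and *Crybb3* itself.

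The transgene's own gene and the other MAF genes gave the following values. *Mafk* was at 7.00 in *Mafk*-Tg and 6.75 in WT, a difference of 0.25 and just under 1.2-fold. Which part of the transcript these probes cover is not given in the sources used here. Of 6 measured MAF genes, *Mafa*, the large MAF of mature β-cells, was lower, at 5.62 in *Mafk*-Tg and 6.10 in WT, a difference of -0.47. Over all genes, 10.5% were at least 1.2-fold lower. *Maf*, the large MAF gene that drives crystallins in lens fibres, was bright, at 8.98 in *Mafk*-Tg and 9.17 in WT, with a difference of -0.18. *Nrl*, a photoreceptor factor, had -0.21, *Mafg* -0.15 and *Maff* 0.00.

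Lens genes other than crystallins were examined in the same way. Of 9 measured genes of lens fibres, such as the water channel gene *Mip* and the filament genes *Bfsp1* and *Bfsp2*, 1 was higher, *Lgsn* at 0.29, and 1 was lower, *Dnase2b* at -0.30, with a median of -0.09. They lay at 4.61 to 6.20 in *Mafk*-Tg and 4.61 to 6.36 in WT, and 2, *Gja3* and *Grifin*, were above the medians of both arrays. Of 10 regulators of lens development, 3 were higher and 1 was lower, with a median of 0.03, beside 7.96% higher and 10.5% lower over all genes. The higher ones were *Prox1* at 0.31, *Tfap2a* at 0.29 and *Pax6* at 0.27, and the lower one was *Eya1* at -0.44. *Pax6* and *Prox1* are also pancreatic genes. *Pitx3* had -0.26, just under 1.2-fold, *Six3* -0.14, *Hsf4* -0.07, *Sox1* 0.04, *Sox2* 0.24 and *Foxe3* 0.01.

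Genes of thyroid hormone handling were set beside *Crym*. Of 7 measured, 3 were higher and 0 lower, with a median of 0.14, beside 7.96% higher and 10.5% lower over all genes. The receptor gene *Thrb* was at 5.25 in *Mafk*-Tg and 4.86 in WT, a difference of 0.39, and the activating deiodinase gene *Dio2* had 0.38. Both lay below the medians of both arrays. Of the 1000 probe sets nearest in level, with or without a symbol, 108 had a higher difference than *Thrb* and 116 than *Dio2*. *Ttr*, the gene of the thyroid hormone carrier of plasma and also an islet gene, was higher by 0.27. The transporter gene *Slc16a10* was at 6.95 in *Mafk*-Tg and 7.16 in WT, a difference of -0.20 and under 1.2-fold.

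*Cryba2* differed in the same direction as most β-cell genes and in the opposite direction to most endocrine progenitor and pan-endocrine genes. Of 8 measured β-cell genes, 6 were lower and 0 higher, with a median of -0.47, beside 10.5% lower and 7.96% higher over all genes. The other 2 lay above 0 and under 1.2-fold, *Iapp*, the amylin gene, at 0.17 and *Nkx6-1*, a β-cell transcription factor gene, at 0.11. *G6pc2*, the islet glucose-6-phosphatase gene, was at 5.58 in *Mafk*-Tg and 6.71 in WT, a difference of -1.13 and the only one in that list below the -0.81 of *Cryba2*. *Slc30a8*, the zinc transporter gene of insulin granules, had -0.54. Of 10 measured endocrine progenitor and pan-endocrine genes, 8 lay above 0, 5 were at least 1.2-fold higher and 1 was lower, with a median of 0.26. The 2 secretory granule genes *Chgb* and *Chga* differed in opposite directions, *Chgb* at 0.73 and *Chga*, the lower one of the list, at -0.32. *Neurog3*, the gene of the factor that specifies endocrine progenitors, was at 8.47 in *Mafk*-Tg and 7.96 in WT, a difference of 0.51. Several of these genes were chosen with their values on these arrays known, so their direction is no independent evidence about *Cryba2*.

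Markers of blood cells and hepatocytes were also lower in *Mafk*-Tg, in parallel with *Cryba2*. All 8 leukocyte genes were lower, with differences of -1.25 to -0.29, beside 10.5% lower and 7.96% higher over all genes. Their summed linear signal was 3564 in *Mafk*-Tg and 6113 in WT. Of 7 erythroid genes 6 were lower, with a summed signal of 1658 in *Mafk*-Tg and 2458 in WT. Of 7 hepatocyte genes 5 were lower and 1 was higher, with 3852 in *Mafk*-Tg and 4637 in WT. The higher one was *Ttr*, also an islet gene, which gave 1510 of that sum in *Mafk*-Tg and 1248 in WT. All 6 acinar genes lay above 0, 1 of them past 1.2-fold, with differences of 0.03 to 0.42. Their summed signal was 15202 in *Mafk*-Tg and 14404 in WT. Most of it came from the carboxypeptidase gene *Cpa1*, which marks acinar cells, with 11644 in *Mafk*-Tg and 11429 in WT. On the log2 scale *Cpa1* was at 13.51 in *Mafk*-Tg and 13.48 in WT. Such sums weigh the brightest probe sets most and do not measure cell content. The part that cell content plays in the difference of *Cryba2* was not tested.

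Muscle and glial markers were set beside *Cryab*. Of 10 muscle genes 1 was higher and 1 lower, *Actc1* at 0.44 and *Myl9* at -0.43, with a median of -0.10. Over all genes, 7.96% were at least 1.2-fold higher and 10.5% lower. Of 8 glial and neuronal genes 0 were past 1.2-fold, with differences of -0.14 to 0.21. The summed muscle signal was 1788 in *Mafk*-Tg and 2012 in WT. The part of muscle content in the value of *Cryab*, -0.17, was not tested.

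**Figure D4:**
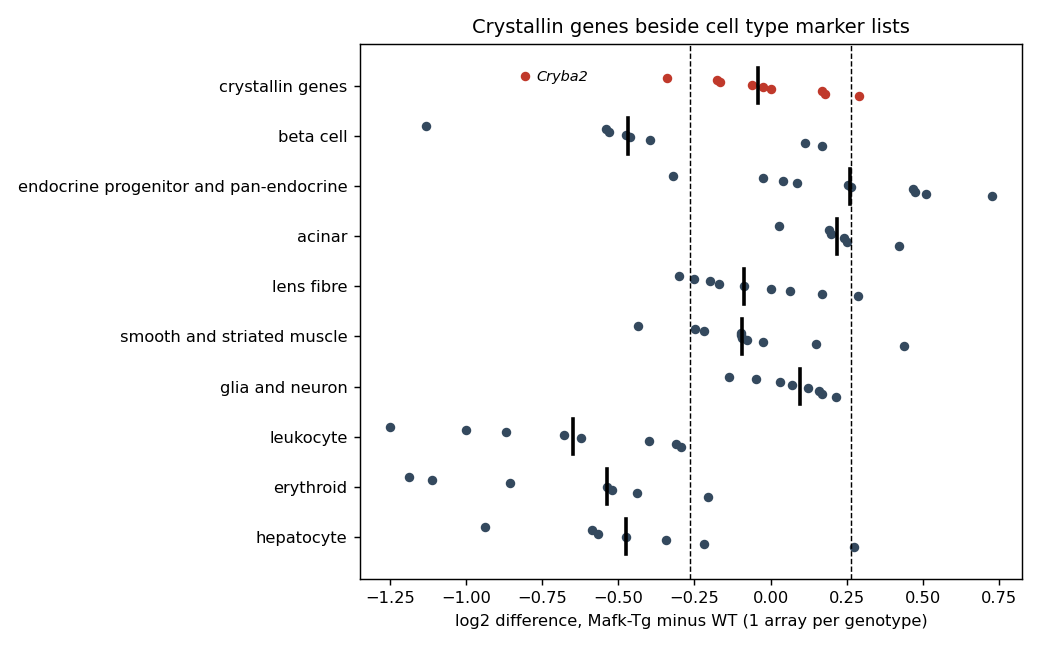
Log2 difference, *Mafk*-Tg minus WT (x axis), of each measured gene (points) and the median (vertical bars) of the 10 crystallin genes and of 9 marker lists (y axis), from 1 array of each genotype. Dashed lines mark 1.2-fold. *Cryba2*, at -0.81, lies among the β-cell, leukocyte, erythroid and hepatocyte genes, and the other 9 crystallin genes spread around 0.

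The genes most like *Cryba2* were those whose pair of array values lay nearest to its own, measured as the Euclidean distance on the log2 scale over the 2 arrays. The 5 nearest were *Ppp1r15a*, at a distance of 0.17, and *Dok2*, *Apbb1ip*, *Csf2rb2* and *Ccnb1ip1*, each at 0.18. Their differences were between -0.64 and -0.58, smaller in size than that of *Cryba2*. *Ppp1r15a* encodes a stress-induced phosphatase subunit, *Dok2* and *Apbb1ip* are signalling genes of blood cells, and *Csf2rb2* encodes a cytokine receptor subunit. A likeness over 2 values describes these arrays only.

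The arrays also differed in sex-linked genes. *Xist*, which coats the inactive X chromosome, was at 11.30 in *Mafk*-Tg and 4.40 in WT, while *Kdm5d*, *Uty* and *Eif2s3y* of the Y chromosome had differences of -3.93, -4.67 and -5.68. None of the 10 crystallin genes lies on the X or Y chromosome, but the effects of genotype and of embryo sex on them cannot be told apart in these arrays.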

How the data were processed

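Whole pancreata of *Mafk*-Tg and WT embryos at E15.5 were analysed with 1 array each. The authors used Affymetrix Expression Console for normalization and for the summary of each probe set, and the deposited values are on the log2 scale. Neither its algorithm and version nor any pooling is given in the sources used here. No further scaling was applied. The values ran from 0.51 to 13.93 in *Mafk*-Tg and 0.72 to 14.01 in WT. The platform table gave 1 symbol for 21789 of the 35556 probe sets, several for 1621 and none for 12146. Single-symbol probe sets of a gene were averaged, and each gene's *Mafk*-Tg value minus its WT value was taken, with the cutoff of 1.2-fold. No test was possible with a single array of each genotype, which limits the precision of every value.

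The members and lists were chosen with earlier results of these data known. Genes named are the 10 members, the other crystallin, MAF, lens regulator and lens fibre genes, up to 4 members of each further list with the largest differences, the 2 nearest genes on each side of a member, the 5 genes most like *Cryba2*, *Mafk* and 4 sex-linked genes. *Cpa1*, *Iapp*, *Nkx6-1*, *Chga* and the genes of the closing search for MARE cores were chosen after their values were seen. Windows of 250 bases came from the RefSeq promoter table of GRCm38.p6, and neighbours from the RefSeq gene table of that build, whose coordinates were not otherwise used. Alternatives were equal medians, quantile normalization, a loess with a span of 0.3, a filter at the median level, a cutoff of 1.5-fold, the brightest probe set and all probe sets that list a member. The differences and the scalings were tested on simulated arrays with known differences and the same noise at every level. The other steps were not tested in this way. The software was Python 3.11.15 with pandas 2.3.3, numpy 2.4.6, matplotlib 3.10.9 and statsmodels 0.14.6.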

Additional observations from a re-analysis of the deposited data

How the results depend on the processing

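The difference of *Cryba2* was -0.81 to -0.80 under equal medians, quantile normalization and loess, and none of these 3 scalings moved any of the 10 crystallin genes across the 1.2-fold cutoff. The brightest probe set and all probe sets that list a member gave the same values by construction, since each of the 10 had 1 probe set and none shared with another symbol. The median shift in difference over all probe sets was less than 0.01 in size under each scaling. Single genes could move more, such as *Cryba1* from 0.18 to 0.22 under loess. Counts were compared at a tolerance of 1.5 times, and differences against the robust SD over the 1000 probe sets nearest in level. With genes below the median mean level left out, 6 of the 10 remained, of which 1, *Cryba2*, was at least 1.2-fold lower, since *Crybb3* was left out. The median difference of these 6 was -0.11, against -0.04 for all 10. With this filter 756 probe sets with 1 symbol were lower and 744 higher, against 2289 and 1792 without it. At a cutoff of 1.5-fold, 1 of the 10 was lower, again *Cryba2*, and 0 were higher, while 285 probe sets were lower and 155 higher. The calls of *Crybb3* and *Cryaa* therefore rest on the cutoff. The signal over background of dim probe sets is not given in the files used here. No paired analysis was possible because each genotype has 1 array.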

Other observations

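Beside *Cryba2*, 36 genes had an upstream window with facing MARE cores at a 1-base or 2-base gap, a search chosen after the *Cryba2* window had been read. Of these 36 genes 19 were measured, of which 2 were at least 1.2-fold lower in *Mafk*-Tg and 0 were higher, beside 10.5% lower and 7.96% higher over all genes. The share lower among the 19 was 10.5%, the same as over all genes. Whether such a window goes with a lower value was not tested. The lower ones were *E2f2*, a cell cycle transcription factor gene, at -0.27 and *Kif18b*, a mitotic kinesin gene, at -0.28. *E2f2* was at 6.72 in *Mafk*-Tg and 6.99 in WT, and *Kif18b* was at 8.12 in *Mafk*-Tg and 8.41 in WT. *Cldn4*, a tight junction gene of epithelia, had 0.07, and the lens gene *Lenep*, which also has such a window, was not analysed here.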
